A study of Mus musculus with 10 samples.

Results

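The Egr, Nr4a and immediate early genes described here are 8 genes, Egr1, Egr2, Egr3, Nr4a1, Nr4a2, Ier2, Ier3 and Csrnp1, out of 32285 genes listed in the E15.5 and E17.5 count tables and 27998 in the E16.5 tables. They were chosen by symbol, on their level by stage and group in epithelial, fibroblast and endothelial cells of embryonic mouse back skin, so those levels are given as a description and carry no test. The data were single-cell RNA-seq counts of unique molecular identifiers (UMIs, 1 per captured transcript) from 10 libraries. At E15.5 there were 2 Control libraries (replicates 2 and 3) and 2 MOF cKO libraries (replicates 5 and 6), at E16.5 there were 2 of each (replicates 1 and 2 in both groups), and a single Control was set beside a single QPC cKO library at E17.5. Embryos labelled MOF cKO carried floxed alleles of MOF (gene symbol Kat8), which encodes the acetyltransferase for lysine 16 of histone H4, and QPC cKO embryos carried floxed alleles of QPC (gene symbol Uqcrq), a subunit of respiratory complex III. Both deletions used Krt14-Cre, which is active in skin epithelium, so the fibroblasts, endothelial cells and immune cells of a cKO embryo are not the cells in which Cre was driven. The study's controls for MOF cKO were wildtype or heterozygous littermates, all mice were of mixed C57Bl/6J and CD-1 background, and, per the labels, skin of all 3 stages was dissociated with collagenase and then trypsin. The study describes MOF cKO replicate 6 at E15.5 as mosaic. Per the labels, each stage had its own version of the 10x 3′ kit (v3.1 at E15.5, v2 at E16.5 and v3 at E17.5), and the E16.5 tables had another gene annotation, so stage, chemistry and annotation cannot be told apart, and each test between groups was made within a stage. The test between epithelial layers joined Control libraries of E15.5 and E17.5 in 1 fit, with library as a block.

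Immediate early genes are transcribed within minutes of a signal, from promoters that are already open, without new protein synthesis. Growth factor signalling through ERK acts on serum response factor and its ternary complex partners, and calcium and cAMP act through CREB, to start transcription of Egr1, Egr2 and Egr3, which encode zinc finger transcription factors, and of Nr4a1 and Nr4a2, which encode orphan nuclear receptors that act without a known physiological ligand. Ier2 and Ier3 encode small immediate early proteins, Ier3 being known for effects on cell survival, and Csrnp1 encodes a nuclear protein first found as an AXIN1-induced gene. The same genes are well known to be switched on when tissue is cut and digested into single cells.

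RefSeq promoter windows of GRCm38.p6, from 250 bases before to 50 bases after a transcript start, were listed for Egr2, Nr4a1, Nr4a2, Ier3 and Csrnp1 and not for the other 3 members. These windows were searched on both strands for the CArG box of serum response factor, the CREB sites TGACGTCA and TGACGCA, the AP-1 site, and the EGR sites GCGTGGGCG and GCGGGGGCG. The windows that held a match, those of Egr2 and Nr4a1, are printed. The choice to print them rests on the matches alone, and a link between a match and the levels was not tested. Capitals mark the matches.
Egr2, chr10:67537619-67537918, plus strand: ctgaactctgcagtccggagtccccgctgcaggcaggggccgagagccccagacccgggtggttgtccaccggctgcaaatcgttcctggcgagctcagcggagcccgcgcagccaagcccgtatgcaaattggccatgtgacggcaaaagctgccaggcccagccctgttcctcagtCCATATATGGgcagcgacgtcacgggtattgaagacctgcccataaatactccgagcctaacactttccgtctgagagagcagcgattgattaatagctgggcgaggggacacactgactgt
Nr4a1, chr15:101266596-101266895, plus strand: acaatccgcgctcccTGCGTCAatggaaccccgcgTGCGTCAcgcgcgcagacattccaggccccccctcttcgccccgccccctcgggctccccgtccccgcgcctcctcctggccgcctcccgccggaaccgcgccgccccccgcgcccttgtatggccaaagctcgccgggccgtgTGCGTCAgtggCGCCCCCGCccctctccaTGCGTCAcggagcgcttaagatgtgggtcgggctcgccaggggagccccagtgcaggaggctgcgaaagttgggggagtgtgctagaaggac
Egr2 held 1 CArG box, CCATATATGG, 72 bases before the start, and this box was in 4 of the 5 windows listed for Egr2. Nr4a1 held TGACGCA 4 times on the minus strand, read as TGCGTCA on the printed strand, 42, 71, 215 and 235 bases before the start, and GCGGGGGCG once on the minus strand at 60 bases, and no match overlapped another. Over 27025 genes with 1 window each, a CArG box was in 1.57% of windows, TGACGCA in 2.19%, GCGGGGGCG in 2.92%, TGACGTCA in 1.88%, the AP-1 site in 5.17% and GCGTGGGCG in 0.625%. In the windows of Nr4a2, Ier3 and Csrnp1 none of these letters was found.

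The members lie on 8 chromosomes of GRCm38, the build of the deposited tables: Egr1 at chr18:34859823-34864984, Egr2 at chr10:67535475-67542188, Egr3 at chr14:70077203-70082614, Nr4a1 at chr15:101254269-101274795, Nr4a2 at chr2:57106830-57124003, Ier2 at chr8:84661331-84662852, Ier3 at chr17:35821684-35822923 and Csrnp1 at chr9:119971163-119984658. Nr4a2, Ier2 and Csrnp1 are on the minus strand.

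The libraries held 13609345 to 203392303 UMIs, and 716 to 10653 cells per library passed the limits of over 1000 and under 6000 genes and under 10% mitochondrial UMIs. Epithelial cells held at least 10 UMIs of Krt5 and Krt14 together, fibroblasts at least 30 UMIs of Col1a1 and Col3a1 with fewer than 10 of the keratins, and endothelial cells UMIs of at least 2 of Pecam1, Cdh5 and Kdr. Markers that the gates did not use were detected in the class they mark in every library, 5 of 5 for each of the 3 classes. Detection alone could hardly fail in sums of this depth, so it is no check of how pure the classes were. Marker sums of other cell types are given below with the levels. Kat8 in epithelial cells was at 13.0 and 14.0 CPM (UMIs of a gene per 1000000 UMIs of all cells of the class in that library) in Control against 13.0 and 10.0 in MOF cKO at E15.5, and at 17.6 and 14.8 against 8.66 and 3.75 at E16.5, while Uqcrq was at 106 in Control and 43.9 in QPC cKO at E17.5. The counts are 3′ tags, and where the floxed part lies in Kat8 is not given in the sources used here, so the Kat8 level at E15.5 is no check of the deletion. The 2 libraries of E17.5 shared 1702 cell barcodes, 20.7% of those of the smaller library, of which 7 passed the limits in both. At most 0.746% of barcodes were shared between any 2 libraries of the other stages. All levels below are CPM. A lower level in a class can come from fewer expressing cells or from less RNA per cell, and the sums do not tell these apart.

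In epithelial cells at E15.5 all 8 members were lower in both MOF cKO libraries than in both Control libraries. The largest differences, on the log2 ratio of mean CPM, were those of Egr3, Csrnp1, Nr4a1 and Egr2, at -1.68, -1.56, -1.50 and -1.47, followed by Ier2 at -0.85, Egr1 at -0.45, Ier3 at -0.40 and Nr4a2 at -0.31. Of 14625 genes tested in the class, 31.6% were lower in MOF cKO without overlap and 19.1% higher. These are the values by which the genes were chosen, and nothing is read from that count.

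**Figure D1:**
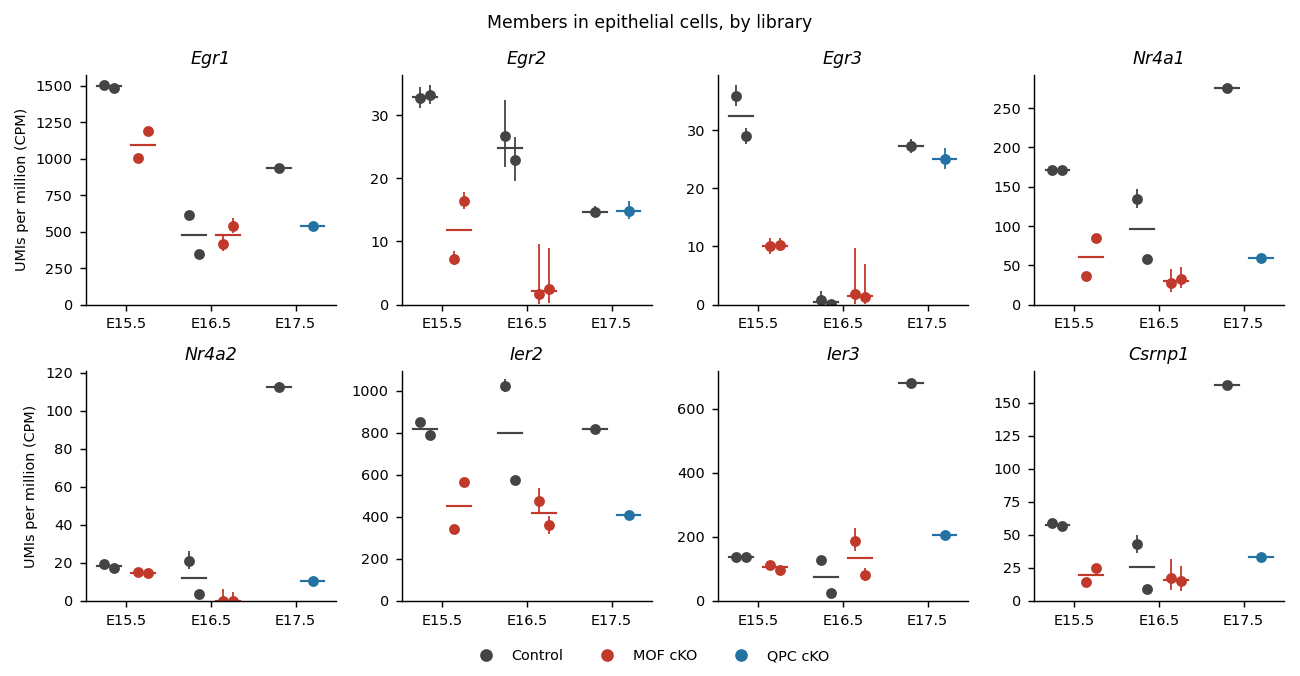
CPM (linear y axis from 0) of the 8 genes in epithelial cells of each library, by embryonic stage, with Control in grey, MOF cKO in red and QPC cKO in blue. Points are libraries, vertical lines are exact Poisson 95% intervals of the count and horizontal lines are group means. At E15.5 the 2 MOF cKO points lie below the 2 Control points in all 8 panels, and at E16.5 the groups overlap for Egr1, Ier3 and Csrnp1.

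Nr4a1, the receptor also called NUR77, was at 172 and 171 CPM in the E15.5 Control libraries and at 36.0 and 85.0 CPM in MOF cKO replicates 5 and 6. The Control libraries agreed closely with each other, while the MOF cKO libraries differed 2-fold or more, with replicate 6, the mosaic one, nearer to Control. Nr4a2 was at 19.7 and 17.3 CPM in Control and 15.2 and 14.5 CPM in MOF cKO, the smallest gap of the 8 over all epithelial cells, and under TMM scaling the groups overlapped (log2 ratio -0.17). Egr2, which encodes a factor also called KROX20, was at 32.7 and 33.2 CPM in Control and at 7.27 and 16.45 CPM in MOF cKO, with the same order of replicates 5 and 6 as Nr4a1. Egr3 was at 35.9 and 29.0 CPM in Control and 10.0 and 10.3 CPM in MOF cKO, where both cKO libraries were alike. Egr1, the most used marker of the family, was at 1506 and 1485 CPM in Control and at 1001 and 1192 CPM in MOF cKO. Both cKO libraries lay below both Controls for Egr1 too, by a smaller factor than for Egr2 and Egr3.

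Of the remaining members, Csrnp1 was at 58.8 and 56.6 CPM in Control and at 14.1 and 25.1 CPM in MOF cKO. Ier2 was at 850 and 788 CPM in Control and at 342 and 565 CPM in MOF cKO. Ier3 was at 138 and 138 CPM in Control and at 112 and 97.0 CPM in MOF cKO. For Ier2, Csrnp1 and Egr1 replicate 6 lay nearer to Control than replicate 5 did, and for Ier3 it lay further away. Under TMM scaling 7 of 8 were lower without overlap, beside 28.1% of all genes.

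Other measures moved with these levels. The summed level of 5 further epithelial markers (Krt15, Trp63, Epcam, Cdh1 and Perp) in the same cells was 4437 to 4564 CPM in Control and 1897 to 3440 CPM in MOF cKO, all 5 being detected in each library. Of other cell types, mural markers summed to 16.54 to 19.3 CPM in Control and 21.1 to 97.9 CPM in MOF cKO, melanocyte markers to 5.49 to 8.28 CPM and 10.97 to 11.2 CPM, muscle markers to 1.68 to 3.11 CPM and 4.96 to 10.5 CPM and glial markers to 30.6 to 33.1 CPM and 29.9 to 30.3 CPM, none of which overlapped. The summed level of 11 heat shock genes was 8696 to 9101 CPM in Control and 9995 to 10347 CPM in MOF cKO. Basal cells, with Krt1 and Krt10 under 0.1 of Krt5 and Krt14, were 94.6% and 90.1% of epithelial cells in Control and 84.9% and 89.4% in MOF cKO. Haemoglobin and Alas2 UMIs, which skin epithelium does not make, summed to 18932 to 20833 CPM in Control and 12056 to 30148 CPM in MOF cKO. Among cells whose collagen UMIs were under 30, a restriction chosen after seeing the data, Nr4a1 was at 168 and 168 CPM in Control and 21.9 and 75.7 CPM in MOF cKO, and Nr4a2 at 14.7 and 11.2 CPM against 5.93 and 6.58 CPM. The gap of Nr4a2 was thus wider there, above 2-fold. The part of the other measures in the difference was not tested.

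Counted per cell, after thinning each cell to 5000 UMIs and leaving out 8 to 10 shallower cells per library, Nr4a1 had a UMI in 49.9% of epithelial cells of both Control libraries (Wilson 95% intervals 48.0 to 51.9% and 48.1 to 51.7%) and in 14.0% (12.02 to 16.2%) and 31.2% (29.0 to 33.5%) of those of MOF cKO replicates 5 and 6. Without thinning the shares were 79.7%, 79.8%, 34.3% and 61.0%. Egr1 kept a UMI in nearly every cell, 97.0% and 96.1% in Control and 93.1% and 94.3% in MOF cKO, with a mean of 7.58 and 7.44 UMIs per thinned cell against 4.88 and 5.80. A share so near to all cells could hardly differ, so for Egr1 the UMIs per cell are the measure that counts. Egr3 was found in 11.95% and 10.4% of Control and 4.28% and 4.15% of MOF cKO cells, and Csrnp1 in 23.8% and 23.0% against 6.66% and 10.4%. Melanocytes, the class with the lowest level of 6 of the 8 genes, are set beside these shares. Whether their UMIs were free RNA or their own transcripts was not tested. In the Control libraries Nr4a1 had a UMI in 9.66% and 7.64% of thinned melanocytes and Csrnp1 in 3.45% and 2.78%, at median depths of 10268.5 and 11893 UMIs before thinning against 16053 and 18709.5 in epithelial cells. Egr3 had a mean of 15.4 CPM in Control and 10.1 CPM in MOF cKO melanocytes, beside 32.4 and 10.1 CPM in epithelial cells. Nr4a2 had a UMI in 7.35% and 5.02% of Control epithelial cells and in 8.28% and 9.72% of melanocytes, and its level was also higher in melanocytes, so no difference between groups is read from its epithelial share. Intervals of shares and of counts cover counting error only.

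At E16.5 the epithelial class held 266 and 512 Control cells but only 30 and 39 MOF cKO cells. The 4 members lower in MOF cKO without overlap were Egr2, Nr4a1, Nr4a2 and Ier2, and Egr3 was higher on 4 or fewer UMIs per group, beside 56.4% and 12.8% of 9938 genes. Egr2 was at 26.7 and 22.8 CPM in Control and at 1.73 and 2.499 CPM in MOF cKO, which were 1 and 2 UMIs. Nr4a1 was at 135 and 57.9 CPM in Control and 27.7 and 32.5 CPM in MOF cKO, so the Control libraries differed from each other by more than 2-fold. Nr4a2 was at 21.0 and 3.43 CPM in Control, and no UMI was counted in MOF cKO, where 3 UMIs would have been 5.19 and 3.75 CPM, so Control replicate 2 lay below the level that this depth can show. Ier2 was at 1024 and 573 CPM in Control and 476 and 360 CPM in MOF cKO.

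Egr1, Csrnp1 and Ier3 did not separate the groups at that stage. Egr1 was at 611 and 344 CPM in Control and 417 and 537 CPM in MOF cKO. Csrnp1 was at 42.8 and 8.84 CPM in Control and 17.3 and 14.996 CPM in MOF cKO. Ier3 was at 127 and 24.8 CPM in Control and 189 and 80.0 CPM in MOF cKO. In all 3 of these genes Control replicate 1 was well above Control replicate 2, as it also was for Nr4a1, Nr4a2 and Ier2. The summed fibroblast markers in these epithelial cells were 1129 to 2575 CPM in Control and 303 to 380 CPM in MOF cKO, and the epithelial markers 4082 to 5702 CPM and 2987 to 3343 CPM. Endothelial markers were at 36.4 to 73.4 CPM in Control and 16.2 to 17.3 CPM in MOF cKO. Immune markers were at 18.7 to 55.5 CPM in Control and 93.5 to 381 CPM in MOF cKO and heat shock genes at 6630 to 6795 CPM and 7067 to 7772 CPM. The part of these measures in the levels was not tested. Scaling mattered here: under TMM the log2 ratio of Egr1 went from 0.00 to 0.64, that of Ier3 from 0.82 to 1.57, that of Csrnp1 from -0.68 to 0.04 and that of Ier2 from -0.93 to -0.27, while Nr4a1 went from -1.68 to -1.02, and 3 members were lower and 3 higher without overlap, beside 34.5% and 28.9% of all genes. With Control replicate 1 left out 4 members were higher without overlap, beside 22.8% of all genes, and with Control replicate 2 left out 6 were lower, beside 71.8%.

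In fibroblasts at E15.5 the 8 members differed little between groups. Egr1 was at 1780 CPM in both Control libraries and at 1953 and 1990 CPM in MOF cKO, a log2 ratio of 0.15 and the opposite direction to epithelial cells. Nr4a1 was at 260 and 248 CPM in Control and 206 and 247 CPM in MOF cKO, Egr3 at 33.3 and 37.5 CPM against 31.8 and 31.3 CPM, and Nr4a2 at 170 and 164 CPM against 155 and 156 CPM, which were the 3 members lower without overlap, with log2 ratios of -0.17, -0.17 and -0.10. The remaining 4 overlapped, with log2 ratios between -0.10 and 0.19. In this class 20.4% of 16268 genes were lower without overlap and 26.3% higher. With MOF cKO replicate 6 left out 4 members were higher, beside 34.6% of all genes, and with MOF cKO replicate 5 left out 5 were lower, beside 28.3%. Marker sums in this class that separated the groups were epithelial (33.0 to 49.7 CPM in Control and 9.62 to 19.8 CPM in MOF cKO), fibroblast (5145 to 5163 and 5611 to 5647 CPM), mural (159 to 162 and 197 to 205 CPM), immune (16.6 to 40.2 and 42.5 to 48.9 CPM) and endothelial (18.4 to 18.7 and 22.4 to 27.5 CPM), and their part in the levels was not tested.

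In fibroblasts at E16.5, 5 members were higher in both MOF cKO libraries and none lower, beside 18.1% and 35.8% of 12569 genes. Csrnp1 was at 77.5 and 38.8 CPM in Control and at 185 and 140 CPM in MOF cKO (log2 ratio 1.48). Ier3 was at 240 and 87.0 CPM in Control and at 494 and 402 CPM in MOF cKO (1.45). For both, Control replicate 1 was again above Control replicate 2, and both MOF cKO libraries were above either. Egr2 was at 16.4 and 10.95 CPM in Control and 27.4 and 25.7 CPM in MOF cKO (0.96). Egr1 was at 823 and 649 CPM in Control and 1326 and 1244 CPM in MOF cKO (0.80). Nr4a1 was at 200 and 171 CPM in Control and 273 and 294 CPM in MOF cKO (0.61). Nr4a2 and Ier2 overlapped, with log2 ratios of -0.04 and 0.15, and Ier2 became higher without overlap under TMM scaling. Other marker sums in the fibroblast class also differed without overlap, immune markers from 14.0 to 29.5 CPM in Control to 80.1 to 144 CPM in MOF cKO, mural from 94.2 to 94.7 CPM to 154 to 190 CPM, muscle from 12.1 to 13.8 CPM to 30.5 to 33.4 CPM, endothelial from 21.0 to 21.2 CPM to 30.3 to 32.1 CPM and heat shock genes from 4794 to 5001 CPM to 4147 to 4414 CPM, and their part was not tested.

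**Figure D2:**
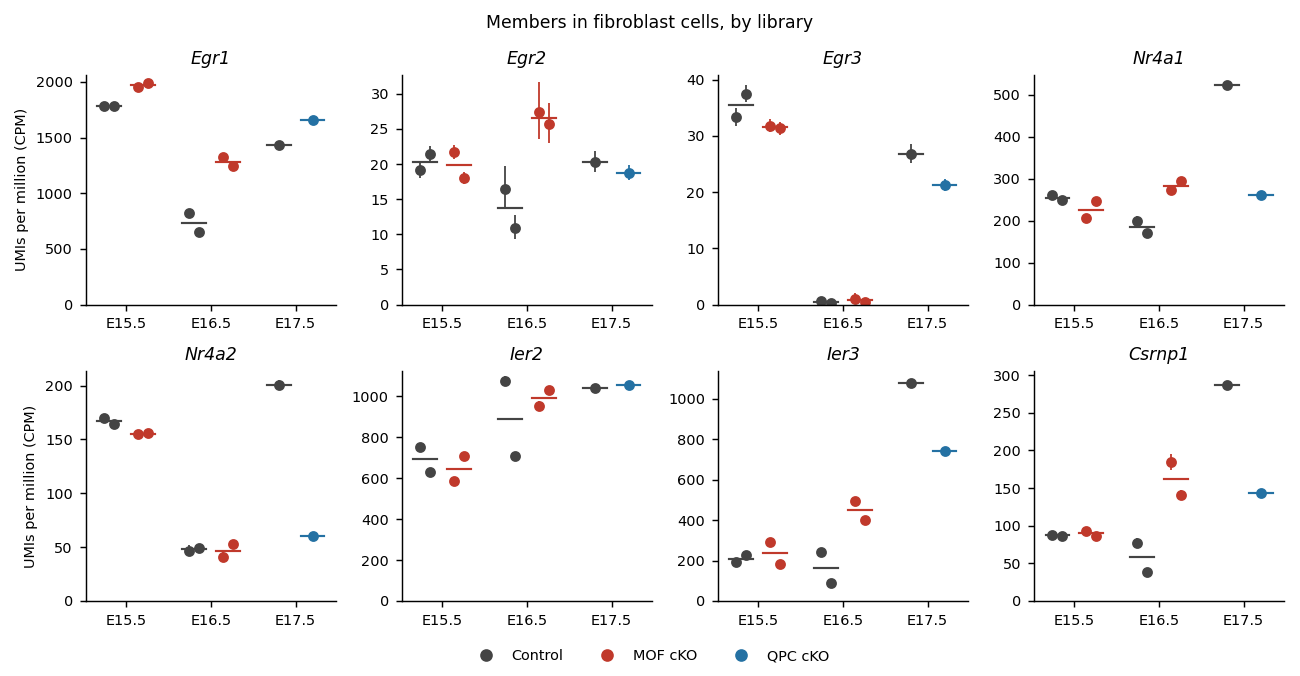
CPM (linear y axis from 0) of the 8 genes in fibroblasts of each library, by embryonic stage, with Control in grey, MOF cKO in red and QPC cKO in blue. Points are libraries, vertical lines exact Poisson 95% intervals and horizontal lines group means. The MOF cKO points at E16.5 lie above both Control points for Egr1, Egr2, Nr4a1, Ier3 and Csrnp1, and Egr3 is near 0 in all 4 libraries of that stage.

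Egr3 was close to absent from every E16.5 library, whatever the group. In fibroblasts, the largest class, it had 4 and 5 UMIs in Control and 7 and 6 in MOF cKO, which is at most 1.04 CPM, against 31.3 to 37.5 CPM at E15.5 and 21.2 to 26.7 CPM at E17.5. Immune cells had 0 to 2 UMIs per library at E16.5 and 1156 to 1508 UMIs at E15.5. The other 7 members had no such gap. E16.5 was the stage of the v2 kit and of the other annotation, so what the gap of Egr3 reflects cannot be told apart.

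Endothelial cells were few, 115 to 255 per library at E15.5 and 11 to 60 at E16.5. At E15.5 Egr1 was at 1198 and 1266 CPM in Control and 1091 and 907 CPM in MOF cKO, Egr3 at 55.8 and 54.9 CPM against 44.5 and 39.4 CPM, and Ier2 at 545 and 469 CPM against 425 and 434 CPM. These 3 were lower without overlap, beside 26% of 10387 genes, with log2 ratios of -0.30, -0.40 and -0.24, and the other 5 overlapped. Fibroblast markers in this class summed to 261 to 278 CPM in Control and 442 to 524 CPM in MOF cKO, immune markers to 47.0 to 176 CPM and 203 to 210 CPM, erythroid markers to 8660 to 11839 CPM and 19555 to 22316 CPM, and heat shock genes to 8006 to 8535 CPM and 8703 to 8944 CPM. Endothelial markers summed to 1916 to 2160 CPM in Control and 1833 to 1910 CPM in MOF cKO, and mural markers to 22.8 to 24.6 CPM and 25.3 to 34.3 CPM. Their part in the levels was not tested. Leaving out Control replicate 3 made 6 lower, beside 44.1% of all genes, and leaving out MOF cKO replicate 5 made 5 lower, beside 36.7%.

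At E16.5 6 members were higher in endothelial cells of MOF cKO without overlap, beside 17.2% of 6027 genes. Ier3 had the largest difference with UMIs in all 4 libraries, 75.6 and 93.4 CPM in Control and 475 and 409 CPM in MOF cKO (log2 ratio 2.39). Nr4a1 was at 55.0 and 162 CPM in Control and 250 and 250 CPM in MOF cKO (1.21), and Csrnp1 at 48.1 and 31.9 CPM against 89.8 and 81.4 CPM (1.10). Egr1 was at 385 and 507 CPM in Control and 934 and 900 CPM in MOF cKO (1.04). Egr2 and Nr4a2 were the other 2, both with no UMI in Control replicate 1, which held only 11 cells. Immune markers in this class summed to 48.1 to 63.7 CPM in Control and 2066 to 2550 CPM in MOF cKO. In endothelial cells without a UMI of Ptprc, Tyrobp or Fcer1g, a restriction chosen after seeing the data that left 9 and 44 Control cells and 11 and 11 MOF cKO cells, Ier3 was at 76.9 and 72.6 CPM in Control and 221 and 166 CPM in MOF cKO, and Egr1 at 367 and 398 CPM against 1059 and 751 CPM. Egr1, Ier3, Nr4a1 and Csrnp1 were higher without overlap there, while Egr2 (0 and 8.25 CPM against 16.6 and 6.15 CPM) and Nr4a2 (0 and 24.8 CPM against 11.04 and 43.1 CPM) overlapped. The share of all genes without overlap was not counted in these few cells, so nothing is read from that. Immune markers summed in these cells to 59.8 and 13.2 CPM in Control and 71.7 and 110.8 CPM in MOF cKO.

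**Figure D3:**
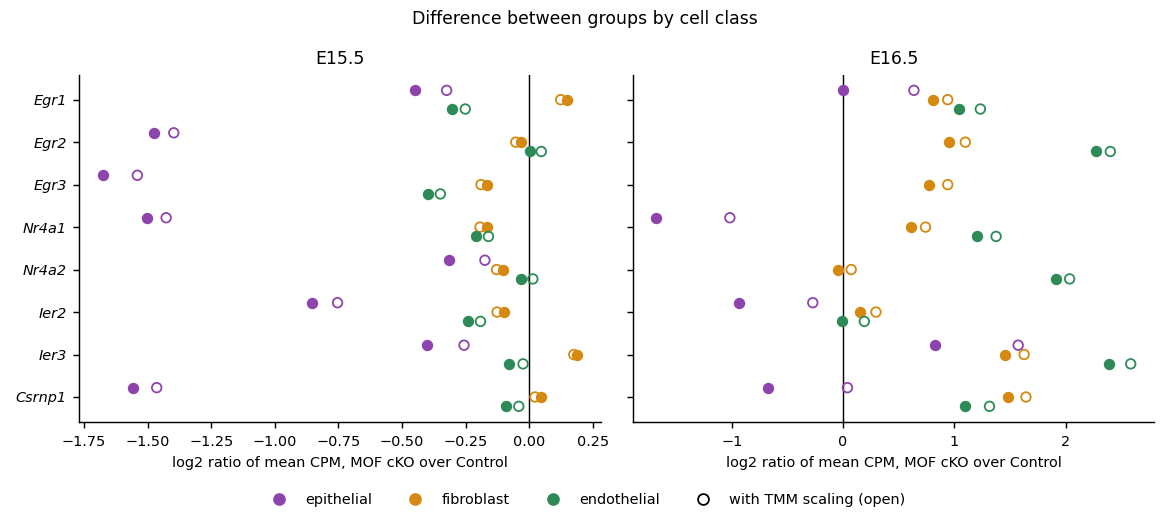
log2 ratio of mean CPM, MOF cKO over Control (x axis, linear, 0 marked), for each gene in epithelial (purple), fibroblast (orange) and endothelial (green) cells at E15.5 and E16.5, with filled points for CPM and open points with TMM scaling. Genes with 3 or fewer UMIs in a group have no point. At E15.5 the 8 epithelial points lie between -1.68 and -0.31 and the fibroblast ones between -0.17 and 0.19, both as filled points, and at E16.5 the fibroblast and endothelial points of Ier3 and Csrnp1 lie above 1.

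The E17.5 libraries, 1 Control and 1 QPC cKO, allow no test between groups, and intervals given for them cover counting error only. In epithelial cells 5 members were 2-fold or more lower in QPC cKO, beside 10.4% of 13459 genes with at least 100 UMIs. Nr4a2 was at 113 CPM in Control and 10.4 CPM in QPC cKO (log2 ratio -3.43, exact interval -3.60 to -3.27), Csrnp1 at 163 and 33.4 CPM (-2.29, -2.38 to -2.19), and Nr4a1 at 276 and 59.1 CPM (-2.22, -2.29 to -2.15). Ier3 was at 679 and 206 CPM (-1.72) and Ier2 at 817 and 407 CPM (-1.01). Egr1 was at 938 and 541 CPM (-0.79), and Egr2 and Egr3 were level, at 14.7 and 14.9 CPM and at 27.3 and 25.1 CPM.

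The makeup of the epithelial class differed between these libraries. Fibroblast markers summed to 3904 CPM in Control and 1177 CPM in QPC cKO, beside epithelial markers at 3393 and 4639 CPM. Of the epithelial cells, 46.3% in Control against 11.4% in QPC cKO lay between the basal and suprabasal keratin ratios. After thinning each cell to 5000 UMIs before gating, which brought the fibroblast markers to 1109 and 778 CPM, only Ier2 remained 2-fold or more lower (log2 ratio -1.05), and Nr4a2 stood at 6.71 CPM in Control and 7.35 CPM in QPC cKO. Nr4a1 was then at 63.1 and 45.4 CPM, and Csrnp1 at 39.8 and 24.2 CPM. Collagen UMIs were under 30 in 1783 of 3069 epithelial cells of Control and 1060 of 1162 of QPC cKO. Among these cells 3 members remained 2-fold or more lower, Nr4a2 at -2.21, Csrnp1 at -1.39 and Ier2 at -1.01. The share of all genes 2-fold or more lower was not counted after thinning or under this limit. In basal cells alone 4 members were 2-fold or more lower, Nr4a2 (-2.06), Csrnp1 (-1.23), Nr4a1 (-1.07) and Ier2 (-1.04), beside 2.58% of 12020 genes, while Egr2 was at 8.98 CPM in Control and 15.1 CPM in QPC cKO. With all cells of a shared barcode left out, Nr4a1 in the whole class was at 272 and 59.0 CPM and Nr4a2 at 112 and 10.4 CPM.

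In E17.5 fibroblasts Nr4a2 was at 201 CPM in Control and 60.5 CPM in QPC cKO (log2 ratio -1.73), Nr4a1 at 523 and 260 CPM (-1.0) and Csrnp1 at 287 and 143 CPM (-1.0), beside 1.48% of 12887 genes that were 2-fold or more lower. Ier3 was at 1078 and 743 CPM, and Egr1, Egr2, Egr3 and Ier2 had log2 ratios between -0.33 and 0.20. In 55 and 60 endothelial cells Nr4a2 was at 95.1 and 33.5 CPM (-1.50, exact interval -2.13 to -0.91) and Csrnp1 at 201 and 71.1 CPM (-1.50, -1.91 to -1.09), and no other member was 2-fold or more lower, beside 1.48% of 3308 genes. At E17.5 Nr4a2 and Csrnp1 were thus 2-fold or more lower in all 3 classes as gated. With cells limited to 5% mitochondrial UMIs, Nr4a2 in endothelial cells was at 69.7 and 50.9 CPM (-0.45, exact interval -1.29 to 0.36), and Csrnp1 and Nr4a1 in fibroblasts lay just inside the 2-fold limit (-0.99 and -0.9977). In the endothelial class fibroblast markers summed to 334 CPM in Control and 862 CPM in QPC cKO, endothelial markers to 3520 and 2524 CPM and heat shock genes to 7593 and 6023 CPM. In the fibroblast class fibroblast markers summed to 7889 and 6106 CPM and immune markers to 18.5 and 3.98 CPM. The part of these measures in the levels was not tested.

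Across 8 cell classes of the E15.5 Control libraries, each gene had its own order of levels, given here as a description over 2 libraries. Immune cells had the highest mean of Egr3 (188 CPM), Nr4a1 (336 CPM), Nr4a2 (262 CPM), Ier2 (908 CPM), Ier3 (1220 CPM) and Csrnp1 (126 CPM). For 5 of these the immune range lay apart from the next class, and for Nr4a2 it overlapped that of glial cells (251 CPM). Ier3 stood out most, with fibroblasts next at 209 CPM. Egr1 was highest in fibroblasts (1780 CPM), whose range overlapped that of muscle cells (1656 CPM), and lowest in melanocytes (125 CPM). Egr2, a gene known from Schwann cell myelination, was highest in mural cells (47.5 CPM), ahead of immune (39.2 CPM) and muscle (38.7 CPM) cells, and was at 13.4 CPM in glial cells. Melanocytes had the lowest level of Egr1, Egr2, Egr3, Nr4a1, Ier2 and Csrnp1, although for Egr3 their range overlapped that of muscle. Epithelial cells had the lowest Nr4a2 (18.5 CPM), apart from melanocytes at 38.2 CPM, and muscle cells the lowest Ier3 (67.8 CPM). Among the classes, epithelial cells were second only to immune cells for Ier2, at 819 CPM.

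Immune cells, gated on at least 2 of Ptprc, Tyrobp and Fcer1g and on few keratin and collagen UMIs, were a class that the choice of the genes did not use, so the members could be tested there. The gate did not shut out cells that also met the endothelial gate, and how many met both is not given here. At E15.5 all 8 were lower in both MOF cKO libraries than in both Control libraries, beside 18.1% of 12072 genes lower without overlap, and 3 passed edgeR's quasi-likelihood test with Benjamini-Hochberg adjustment over all genes, which called 0.754% of genes lower and 1.69% in either direction. Egr3 fell from 201 and 175 CPM to 123 and 108 CPM (log2 fold change -0.75, SE 0.117, adjusted p = 0.0395). Ier3 fell from 1256 and 1184 CPM to 840 and 899 CPM (-0.54, SE 0.0840, adjusted p = 0.0395). Nr4a2 fell from 275 and 248 CPM to 186 and 167 CPM (-0.61, SE 0.106, adjusted p = 0.0437). Each of the 3 was lower in 2 of 2 MOF cKO libraries, by less than 2-fold. With scaling by library size alone the only member called was Egr3 (edgeR adjusted p = 0.0456), and with a 5% mitochondrial limit the only one was Egr1 (0.0495), while Egr3, Ier3 and Nr4a2 were at 0.0732, 0.0633 and 0.0561. Of all genes, these fits called 1.37% and 1.53%.

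The 5 members that missed the adjusted threshold in immune cells were Egr1 at 990 and 946 CPM against 734 and 774 CPM (edgeR adjusted p = 0.0701), Egr2 at 37.5 and 40.8 CPM against 23.7 and 29.0 CPM (0.0717), Ier2 at 900 and 917 CPM against 608 and 733 CPM (0.0774), Csrnp1 at 134 and 119 CPM against 80.8 and 103 CPM (0.134) and Nr4a1 at 334 and 339 CPM against 256 and 312 CPM (0.278). All 8 had an unadjusted edgeR p under 0.05, beside 14.4% of genes. The number of members called was 6 without Control replicate 2 and 6 without Control replicate 3, 2 without MOF cKO replicate 5 and 3 without MOF cKO replicate 6, where none of Egr3, Ier3 and Nr4a2 was among them. The share of all genes called was 5.21%, 4.40%, 1.62% and 2.45% in these 4 fits. The study describes the E15.5 skin as taken from pairs of Control and MOF cKO embryos, while the labels do not tie a library to an embryo, and all p-values measure the spread between these libraries. Further immune markers (Cd52, Laptm5, Coro1a, Lyz2 and Cd74) in this class summed to 1819 to 2109 CPM in Control and 3463 to 4114 CPM in MOF cKO, and all 5 were detected in each library. The genes used as melanocyte markers (Mitf, Tyr, Tyrp1, Kit and Gpr143) summed to 404 to 416 CPM in Control and 275 to 311 CPM in MOF cKO. Which of them made up the sum is not given here, so it is no measure of melanocyte RNA alone. Epithelial markers summed to 35.5 to 54.4 CPM and 24.97 to 25.5 CPM, and heat shock genes to 7631 to 8899 CPM and 9070 to 9153 CPM. The part of these measures in the result was not tested.

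**Figure D4:**
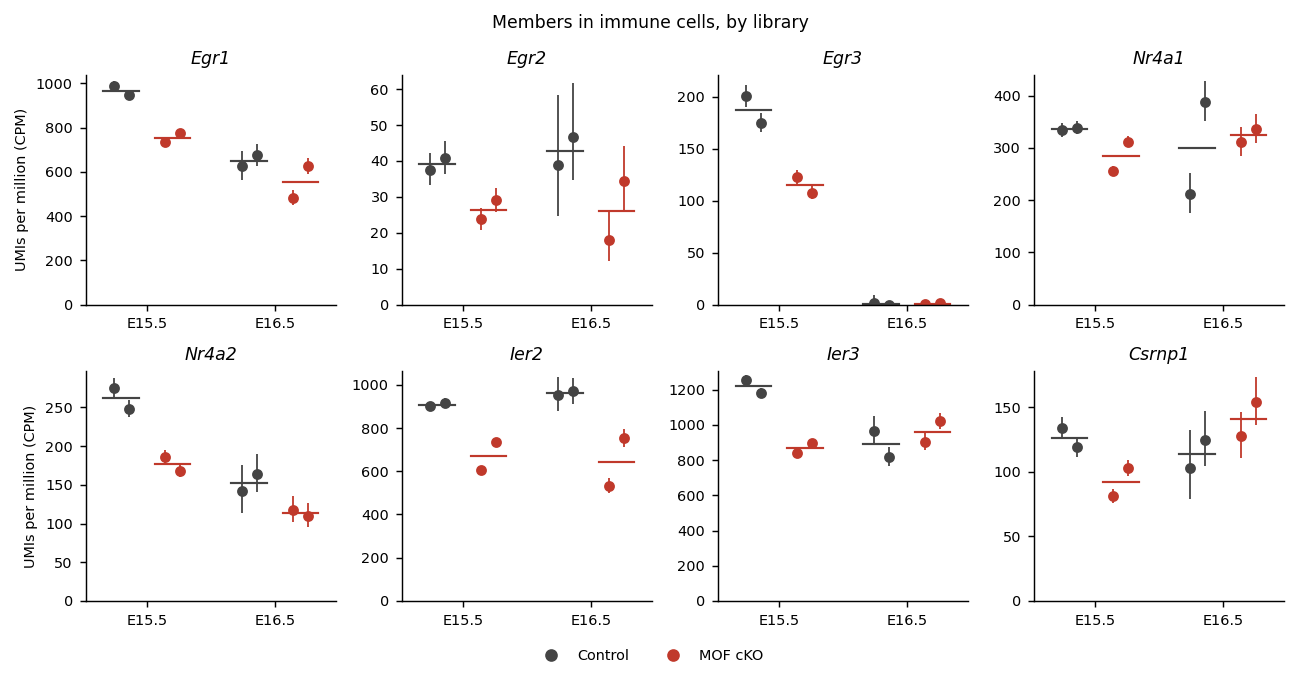
CPM (linear y axis from 0) of the 8 genes in immune cells of each E15.5 and E16.5 library, by embryonic stage, with Control in grey and MOF cKO in red. Points are libraries, vertical lines exact Poisson 95% intervals and horizontal lines group means. Both MOF cKO points lie below both Control points at E15.5 in all 8 panels.

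At E16.5, with 79 and 122 Control and 112 and 146 MOF cKO immune cells, none of 7 members tested was called by edgeR (0.538% of genes were) or DESeq2, and none had an unadjusted edgeR p under 0.05 (12.3% of genes had). Ier2 was at 955 and 972 CPM in Control and 532 and 753 CPM in MOF cKO (edgeR adjusted p = 0.450), and Ier3 at 968 and 819 CPM against 904 and 1021 CPM (0.824). The difference between the stages was not tested. Mural, glial, melanocyte and muscle cells were tested at E15.5 alone, where each library had at least 20 of them. No member was called in these classes by edgeR or DESeq2, beside 0.0758%, 0%, 0.332% and 0.156% of all genes by edgeR, with 0, 0, 2 and 1 members at an unadjusted edgeR p under 0.05, beside 6.39%, 5.91%, 9.75% and 6.5%. The members with an unadjusted p under 0.05 were Nr4a2 and Egr1 in melanocytes (log2 fold changes -0.52 and -0.32) and Ier3 in muscle (-0.82, from 75.6 and 60.0 CPM to 29.9 and 43.8 CPM). In muscle 2 members were called without Control replicate 2, 1 without Control replicate 3 and 1 without MOF cKO replicate 6, beside 1.399%, 1.43% and 0.869% of all genes.

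Related genes that were not members were followed in 6 lists: relatives of the members (8 genes), AP-1 subunits (8), other immediate early genes (22), feedback inhibitors of ERK signalling (11), upstream regulators such as Srf, Elk1 and Creb1 (13) and heat shock genes (11). The lists were drawn up with earlier results of these data known. At E15.5 none was called by edgeR in epithelial cells (72 tested), in fibroblasts (73) or in endothelial cells (68), while DESeq2 called 5, 7 and 1, beside 0.903%, 3.04% and 0.154% of all genes, and 25, 15 and 18 had an edgeR p under 0.05 before adjustment. In epithelial cells edgeR called 0% of all genes and 9.3% had an unadjusted p under 0.05, in fibroblasts 0% and 15.6%, and in endothelial cells 0.0963% and 9.88%.

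The AP-1 subunits, partners of the members in the early response, were all 8 below 0 in E15.5 epithelial cells, with a median log2 fold change of -0.69 against -0.01 over all genes. Fosl1 was at 41.5 and 39.4 CPM in Control and 8.02 and 9.60 CPM in MOF cKO, and Atf3, a stress-induced member of the family, was at 1696 and 1576 CPM against 287 and 578 CPM, with edgeR adjusted p = 0.390 and 0.503. Fos was at 3632 and 3392 CPM against 1490 and 2526 CPM, with replicate 6 again nearer to Control. The other immediate early genes had 16 of 22 below 0 and a median of -0.46, the ERK feedback genes 4 of 11 and 0.02, the upstream regulators 5 of 13 and 0.02, the relatives 2 of 7 and 0.14, and the heat shock genes 1 of 11 and 0.32. Without MOF cKO replicate 6, 50 of the 72 genes were called, 28 higher and 22 lower, along with 7015 of 15415 genes, and without replicate 5 it was 2, along with 14 of 15294 genes.

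At E16.5 each call among the lists was a rise in MOF cKO. In epithelial cells 9 of 66 list genes rose, beside 4.68% of all genes, among them Hspb1, a small heat shock protein (218 and 320 CPM to 2420 and 2218 CPM, log2 fold change 3.68, SE 0.432, edgeR adjusted p = 0.0132), Ccn2, a matricellular target of YAP (3.55, adjusted p = 0.0147), and Hspa1b, an inducible HSP70 gene (3.36, adjusted p = 0.0148). In fibroblasts 13 of 70 rose, beside 2.43%, led by Trib1, a pseudokinase (2.96, SE 0.452, adjusted p = 0.0359), Socs3, an inhibitor of cytokine signalling (76.5 and 42.3 CPM to 256 and 209 CPM, 2.13, adjusted p = 0.0299), and Errfi1, an inhibitor of EGFR (2.0, adjusted p = 0.0283). In endothelial cells 10 of 56 rose, beside 4.4%, led by Ier5, related to Ier2 (2.34, adjusted p = 0.00871), Dusp5, a nuclear ERK phosphatase (2.32, adjusted p = 0.0198), and Atf3 (13.7 and 47.3 CPM to 176 and 169 CPM, 2.30, adjusted p = 0.00856). The floor of 20 cells per library was not applied to endothelial cells, of which E16.5 Control replicate 1 held 11. The endothelial libraries of MOF cKO at this stage held the 2066 to 2550 CPM of immune markers given above, beside 48.1 to 63.7 CPM in Control, and their endothelial markers summed to 1814 to 2077 CPM beside 2463 to 2969 CPM. Erythroid markers (2882 to 21558 CPM beside 21716 to 31603 CPM) and melanocyte markers (31.8 to 41.9 CPM beside 6.87 to 27.5 CPM) separated the groups as well. The epithelial libraries of E16.5 differed in the sums given with the member levels. Suprabasal cells, by the keratin gate given below, were 6.02% and 2.93% of their epithelial cells in Control and 6.67% and 15.4% in MOF cKO. In the fit between layers of Control libraries, Hspb1 and Hspa1b were higher in suprabasal cells (log2 fold changes 3.79 and 1.24) and Ccn2 lower (-3.51). The part of these measures in the list calls was not tested.

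By list, the E16.5 rises in epithelial cells were 1 of 4 relatives, 1 of 8 AP-1 subunits, 4 of 21 other immediate early genes, 0 of 9 ERK feedback genes, 0 of 13 upstream regulators and 3 of 11 heat shock genes. In fibroblasts they were 2 of 7, 2 of 7, 7 of 22, 2 of 11, 0 of 13 and 0 of 10, and in endothelial cells 1 of 3, 3 of 7, 5 of 19, 1 of 9, 0 of 9 and 0 of 9. Upstream regulators had no call in the 3 classes, where 4.68%, 2.43% and 4.4% of all genes rose. A list this short would hold few calls at such shares, so nothing is read from that. The counts moved when 1 library was left out. In epithelial cells 0 were called without MOF cKO replicate 1, 3 without MOF cKO replicate 2 and 10 without either Control (1 of the 10 without Control replicate 2 was a fall), in fibroblasts 0 without Control replicate 2, 8 without Control replicate 1, 2 without MOF cKO replicate 1 and 4 without MOF cKO replicate 2, and in endothelial cells 14 and 16 without Control replicates 1 and 2 and 8 and 12 without MOF cKO replicates 1 and 2. The calls over all genes moved too. Without Control replicate 2, 0 of 12646 genes were called in fibroblasts, and without MOF cKO replicate 1 the share was 1.03% there and 0.329% in epithelial cells, where it was 8.53% and 13.48% without Control replicates 1 and 2. Without TMM, scaling by library size shifted the all-gene median, on the log2 scale, from -0.11 to -0.71 in epithelial cells, from 0.01 to -0.11 in fibroblasts and from 0.02 to -0.15 in endothelial cells, and in E15.5 epithelial cells from -0.01 to -0.13. With it the list genes called at E16.5 were 6 higher and 0 lower in epithelial cells and 8 higher and 2 lower in fibroblasts, and all genes called went from 465 higher and 113 lower to 263 and 549 in epithelial cells and from 305 and 278 to 346 and 491 in fibroblasts.

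In the classes that the choice of genes did not use, 3 of 70 list genes were called in immune cells at E15.5 (1.69% of all genes), 1 of 64 in melanocytes (0.332%), 3 of 68 in muscle (0.156%), 0 of 71 in mural cells (0.0758%) and 0 of 66 in glial cells (0%). At E16.5 none of 62 was called in immune cells (0.538%). All 7 at E15.5 were lower in MOF cKO, namely Jun (-0.63, edgeR adjusted p = 0.0466), Dusp5 (-0.92, 0.0252) and Hspa1b (-1.24, 0.0252) in immune cells, Klf4, a Krüppel-like factor (-1.13, 0.0440), in melanocytes, and Atf3 (-1.48, 0.0206), Zfp36, which promotes decay of AU-rich mRNAs (-1.09, 0.0184), and Hspa1a (-2.04, 0.00857) in muscle cells.

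Within the epithelium, basal cells keep contact with the basement membrane and divide, and suprabasal cells, which switch from Krt5 and Krt14 to Krt1 and Krt10, differentiate. Suprabasal cells, with more Krt1 and Krt10 than Krt5 and Krt14 UMIs, were compared with basal cells of the same library in the 3 Control libraries that had at least 20 of both (49, 150 and 70 suprabasal cells). In an edgeR fit with library as a block, 4 of the 8 members were lower in suprabasal cells, beside 20.1% of 12967 genes lower and 38.1% in either direction. Ier3 fell from 145, 148 and 334 CPM in basal cells to 29.9, 41.6 and 152 CPM in suprabasal cells of E15.5 Control replicates 2 and 3 and the E17.5 Control (log2 fold change -1.51, SE 0.195, adjusted p = 1.96e-04). Nr4a2 fell from 20.2, 17.9 and 34.3 CPM to 6.55, 7.82 and 7.42 CPM (-1.50, SE 0.219, adjusted p = 4.35e-04). Nr4a1 fell from 175, 177 and 109 CPM to 129, 112 and 40.3 CPM (-0.70, SE 0.136, adjusted p = 0.00245), and Egr3 from 35.4, 29.6 and 23.1 CPM to 20.6, 21.5 and 6.36 CPM (-0.75, SE 0.207, adjusted p = 0.0159). Each of the 4 was lower in 3 of 3 libraries.

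**Figure D5:**
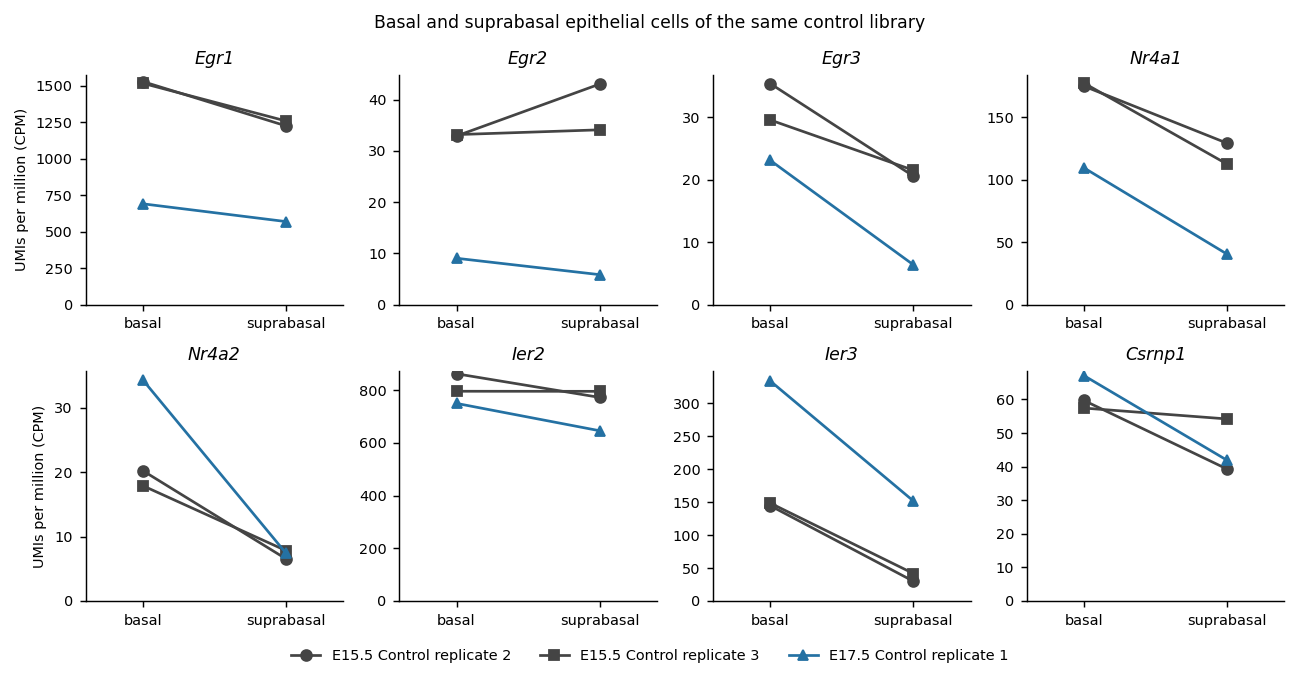
CPM (linear y axis from 0) of the 8 genes in basal and suprabasal epithelial cells, with a line joining both sums of each of the 3 Control libraries (E15.5 replicates 2 and 3 in grey, E17.5 in blue). All 3 lines fall for each gene but Egr2, with that of Ier2 in E15.5 replicate 3 close to level (795.7 to 795.4 CPM).

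The other 4 members missed the threshold between the layers: Csrnp1 at -0.30 (adjusted p = 0.105), Egr1 at -0.18 (0.141), Ier2 at -0.02 (0.897) and Egr2 at 0.13 (0.547). Of the lists, 8 of 11 ERK feedback genes were lower in suprabasal cells and none higher, among them Dusp6 (-2.14), Spred2 (-1.80) and Spry2 (-1.13), while the AP-1 subunits had 1 lower (Atf3, -0.63) and 1 higher (Fosl2, 0.73) of 8. The other immediate early genes had 9 lower and 4 higher of 22, the heat shock genes 2 lower and 4 higher of 11, the upstream regulators 2 lower and 1 higher of 13 and the relatives 1 lower and 1 higher of 7. The call for the members moved when the layers were cut in another way, which also changed the libraries used, so the part of each cannot be told apart. With a single keratin ratio of 0.3 and no cells left out, which took in 5 libraries, none of the 8 was called, and Nr4a2 and Nr4a1 changed sign. In that fit 8.16% of all genes were called, beside 38.1% with the layers as first cut. Without the library block 1 was called, beside 17.2% of all genes. In the 2 cKO libraries with enough cells 2 were called, Ier3 and Nr4a1, beside 24.1%, and Nr4a2 and Egr3 changed sign. Leaving out E15.5 Control replicate 2 lost Egr3.

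The likeness of the 8 genes across libraries is given as a description, since it uses the levels by which they were chosen. Over the 30 sums of 10 libraries and 3 classes, with the mean of each stage and class taken off log2(CPM + 1), all 28 pairs of members had a Pearson r above 0, with a median of 0.53, from 0.17 for Egr3 and Nr4a2 to 0.83 for Egr1 and Ier3. Over all pairs of the 6044 genes with a mean of at least 20 CPM the median was 0.20, and 66.4% of pairs were above 0. Egr2 and Egr3, with means of 15.9 and 18.9 CPM, lay below that limit, so the 2 sets of pairs are not fully alike. The sums share libraries, depth and, at E17.5, cell barcodes, so they are not independent points. Among those 6044 genes, the ones most like Egr1 were Socs3 (r = 0.95), Zfp36 (0.89) and Junb (0.87), those most like Nr4a1 were Junb (0.88), Dusp1 (0.84) and B3gat3 (0.83), those most like Ier3 were Nfkbiz (0.92), Zfp36 (0.90) and Adamts1 (0.89), and those most like Csrnp1 were Irf1 (0.94), Zfp36 (0.87) and Cxcl1 (0.85). For these 4 members, genes of the immediate early lists were among the closest 3. Nr4a2 was closest to Lpar1 (0.93), Creb3l1 (0.91) and Islr (0.90), and Ier2 to Selenok (0.86), Gaa (0.85) and Spop (0.84). Egr2 (Srek1ip1, Rprd2 and Tfdp2, each 0.92) and Egr3 (Spag9, 0.80, Picalm, 0.74, and Pnpla8, 0.72) had no list gene among the 3 closest. From cell to cell in the same library and class, at 5000 UMIs, Egr1 and Ier2 had an r of 0.25 to 0.69 in epithelial cells over 8 libraries, 0.38 to 0.62 in fibroblasts over 10 and 0.26 to 0.46 in endothelial cells over 4, and the other pairs with Egr1 reached 0.47 at most.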

How the data were processed

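The authors counted UMIs with Cell Ranger (versions 6.1.2 and 1.3.1 are listed in the submitters' processing notes) against mm10, and deposited raw counts per gene and barcode for 10 libraries of 10x 3′ kits. No deposited per-sample column was left unassigned. Cells were kept at over 1000 and under 6000 genes and under 10% mitochondrial UMIs, as in the study's methods, and classes were gated on marker UMIs; no doublet caller was run. The members and the gene lists were chosen with earlier results of these data known. Levels are CPM of the summed class. For tests, the deposited counts were summed per library and class and fitted with edgeR 4.0.16 in R 4.3.3 (filterByExpr, TMM, glmQLFit, Benjamini-Hochberg over all genes, adjusted p under 0.05), and the scripts were tested on simulated data. Groups were compared within a stage (2 Control against 2 MOF cKO). Layers were compared in 1 fit over 3 Control libraries of E15.5 and E17.5, with library as a block. Alternatives were DESeq2 1.42.0, library size scaling, no filter, a 5% mitochondrial limit, thinning to 5000 UMIs, each replicate left out, and 3 cell restrictions added after seeing the data. Named by rule were all members, the 3 genes most like each member, and the 3 largest list changes in each direction. AP-1 genes named at E15.5, the list genes called in other classes and Dusp6, Spred2, Spry2, Atf3 and Fosl2 in the layers were picked after their values were seen. At E17.5 exact Poisson intervals were used. Depth was 13609345 to 203392303 UMIs per library. Promoter sequences came from RefSeq and gene positions from GENCODE, both on GRCm38.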

Additional observations from a re-analysis of the deposited data

Results flagged for a closer look

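In 6 cases both MOF cKO libraries lay on opposite sides of both Control libraries in 2 classes or 2 stages, under scaling by all UMIs and under TMM, and in none of them was the difference itself tested. The pairs looked at were both stages of 1 class and any 2 of the 3 classes at 1 stage, leaving out genes with 3 or fewer UMIs in a group. Egr1 in endothelial cells was lower in MOF cKO at E15.5 and higher at E16.5, with log2 ratios 1.34 apart. Egr1 at E15.5 was lower in epithelial cells and higher in fibroblasts, 0.60 apart. At the same stage it was lower in endothelial cells too, where the log2 ratio minus that of fibroblasts was -0.45. Nr4a1 in fibroblasts was lower at E15.5 and higher at E16.5, 0.78 apart. Stage, kit version and gene annotation cannot be told apart in these 2 cases. At E16.5 Nr4a1 was lower in epithelial cells of MOF cKO and higher in fibroblasts, 2.29 apart, and higher in endothelial cells, 2.88 apart. Those 2 share the epithelial sums of 30 and 39 cells, and the comparisons between classes use the same libraries. The values belong to the levels by which the genes were chosen.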

How the results depend on the processing

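Counts of members or of list genes that moved by more than 1.5 times are given here, and the cause was not tested. TMM scaling gave 3 members higher in epithelial cells at E16.5 in place of 1, beside 28.9% and 12.8% of all genes. Thinning to 5000 UMIs gave 0 there, 1 higher in endothelial cells at E15.5 in place of 0, 1 lower in endothelial cells at E16.5 in place of 0, and 1 lower in epithelial cells at E17.5 in place of 5. The limit on collagen UMIs gave 0 higher in epithelial cells at E16.5 and 3 lower at E17.5. The 5% mitochondrial limit gave 2 members higher in fibroblasts at E15.5 in place of 1, 1 lower in fibroblasts at E17.5 in place of 3, 1 lower in endothelial cells at E17.5 in place of 2, 1 higher there in place of 0, and 1 called in immune cells at E15.5 in place of 3, beside 1.53% of all genes. Cells meeting 1 gate only gave 5 lower in endothelial cells at E17.5. Among those were Egr2, on 8 UMIs in Control and 4 in QPC cKO, and Egr3, on 18 and 9 UMIs. For thinning, the collagen limit, the single gate and levels under the mitochondrial limit, the share of all genes was not counted. Nothing is read from the counts of members in those settings. Library size alone gave 1 member called in immune cells at E15.5, and 6 list genes in endothelial cells at E16.5 in place of 10, beside 1.37% and 3.57% of all genes. Without the filter the list genes called were 1 in epithelial cells and 5 in fibroblasts at E15.5, and 18 in epithelial cells, 29 in fibroblasts and 18 in endothelial cells at E16.5, in place of 0, 0, 9, 13 and 10, beside 0.00458%, 0.954%, 11.8%, 9.39% and 4.21% of all genes. DESeq2 called 5, 7 and 1 in the 3 classes at E15.5, 23 in fibroblasts and 5 in endothelial cells at E16.5, and 5 members in immune cells at E15.5, beside 0.903%, 3.04%, 0.154%, 7.56%, 2.52% and 2.78% of all genes. Between layers, the members called were 0 with a single ratio, 1 without the library block and 2 in cKO libraries, in place of 4, beside 8.16%, 17.2% and 24.1% of all genes in place of 38.1%. The single ratio also took in 5 libraries in place of 3. Nr4a2 in suprabasal against basal control cells reversed to 0.41 with a single ratio and 0.059 in cKO libraries, Nr4a1 in suprabasal against basal control cells to 0.22 with a single ratio, and Egr3 in suprabasal against basal control cells to 0.19 in cKO libraries.

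With 1 library left out in turn, a count without overlap can grow but not shrink, so these ranges say nothing of stability. The members lower and higher were 3 to 5 and 1 to 4 in fibroblasts and 4 to 6 and 0 to 2 in endothelial cells at E15.5. The E16.5 counts were 4 to 6 and 1 to 4 in epithelial cells, 0 to 1 and 5 to 7 in fibroblasts, and 0 to 1 and 6 to 8 in endothelial cells. List genes called were 0 to 50 in epithelial cells, 0 to 3 in fibroblasts and 0 to 0 in endothelial cells at E15.5, and 0 to 10, 0 to 8 and 8 to 16 at E16.5. Members called were 2 to 6 in immune cells and 0 to 2 in muscle cells at E15.5, and 3 to 5 between layers. In these fits the group left with 1 library was taken to vary like the other.

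Replicate numbers are shared between groups at E16.5 alone. Same-numbered libraries did not deviate together (correlations of -0.0551 in epithelial, -0.118 in fibroblast, -0.0637 in endothelial and -0.239 in immune cells), so the numbers were not taken as pairs. With a replicate block 10, 10 and 10 list genes were called in epithelial, fibroblast and endothelial cells and 0 members in immune cells. The shares of all genes called in these fits were 5.52%, 4.58%, 4.93% and 0.257%. The 30 and 39 epithelial cells of MOF cKO at E16.5 and the 11 endothelial cells of Control replicate 1 limit the precision of those values.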
